A study of Mus musculus with 5 samples.

Results

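The mouse Sox genes of the SoxB, SoxE and SoxF groups were examined for the repressive histone mark H3K27me3, trimethylation of lysine 27 on histone H3. The 10 genes were Sox1, Sox2 and Sox3 (SoxB1), Sox14 and Sox21 (SoxB2), Sox8, Sox9 and Sox10 (SoxE), and Sox17 and Sox18 (SoxF), out of 21938 protein-coding genes. They were chosen by name. For each gene, the peaks in the gene body and 5 kb on each side were collected, and this window is called the locus here. The material was mesenchyme of molars from wildtype C57BL/6 mice at postnatal day 3, taken after the epithelium had been removed. H3K27me3 chromatin immunoprecipitation with sequencing was carried out in 2 libraries, replicates 1 and 2, each set against its own input chromatin, and replicate 1 was also set against 1 library made with nonspecific IgG. There was no mutant or treated group. Whether different animals or pooled litters went into the libraries is not stated in the labels. Each SD below is therefore a difference between 2 libraries that may be technical.

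Sox proteins are transcription factors that bind DNA through a high mobility group domain. SoxB1 factors maintain neural and epithelial progenitors, and SoxB2 factors counteract them. SoxE factors act in neural crest, cartilage and glia, while SoxF factors act in endothelium and endoderm. In teeth, Sox2 is best known from the epithelium, which was dissected away here, and Sox9 and Sox10 are known from cells of neural crest origin. H3K27me3 is placed by Polycomb repressive complex 2, whose catalytic subunit is Ezh2, and is typically found over CpG-rich developmental genes that are silent in the tissue.

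All SoxB genes carried H3K27me3 peaks, while 2 of the 3 SoxE genes carried none. A peak was present in both replicates against input at 5 of 5 SoxB, 1 of 3 SoxE and 1 of 2 SoxF loci. Over all 10 genes this was 7 loci, namely those of Sox1, Sox2, Sox3, Sox14, Sox21, Sox10 and Sox17, compared with 15.7% of all protein-coding genes. Singly, replicate 1 had a peak at 7 of 10 loci (25% of all genes), replicate 1 against IgG at 8 (25.9%) and replicate 2 at 8 (35.7%), with Sox18 added in the IgG and replicate 2 lists. Sox8 and Sox9 had 0 peaks in each of the 3 lists, as did 51% of all genes. The contrast between SoxB and SoxE depended on the flanks. With a flank of 0 kb, Sox3 and Sox14 no longer had a peak in both replicates. Sox1, Sox2, Sox21, Sox10 and Sox17 then remained. At a fold enrichment of 3 or higher, Sox1 and Sox2 remained. A longer locus offers more room for a peak, and the Sox loci are short, from 11.8 to 20.3 kb. Among the 6539 genes with loci in this range, 6.81% had a peak in both replicates. Among CpG-rich promoters, to which 9 of the 10 genes belong (Sox10 is the exception), the share was 19.2%. In molar mesenchyme many cell types are mixed, and a strong mark in a few cells cannot be told apart from a weak mark in many.

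**Figure D1:**
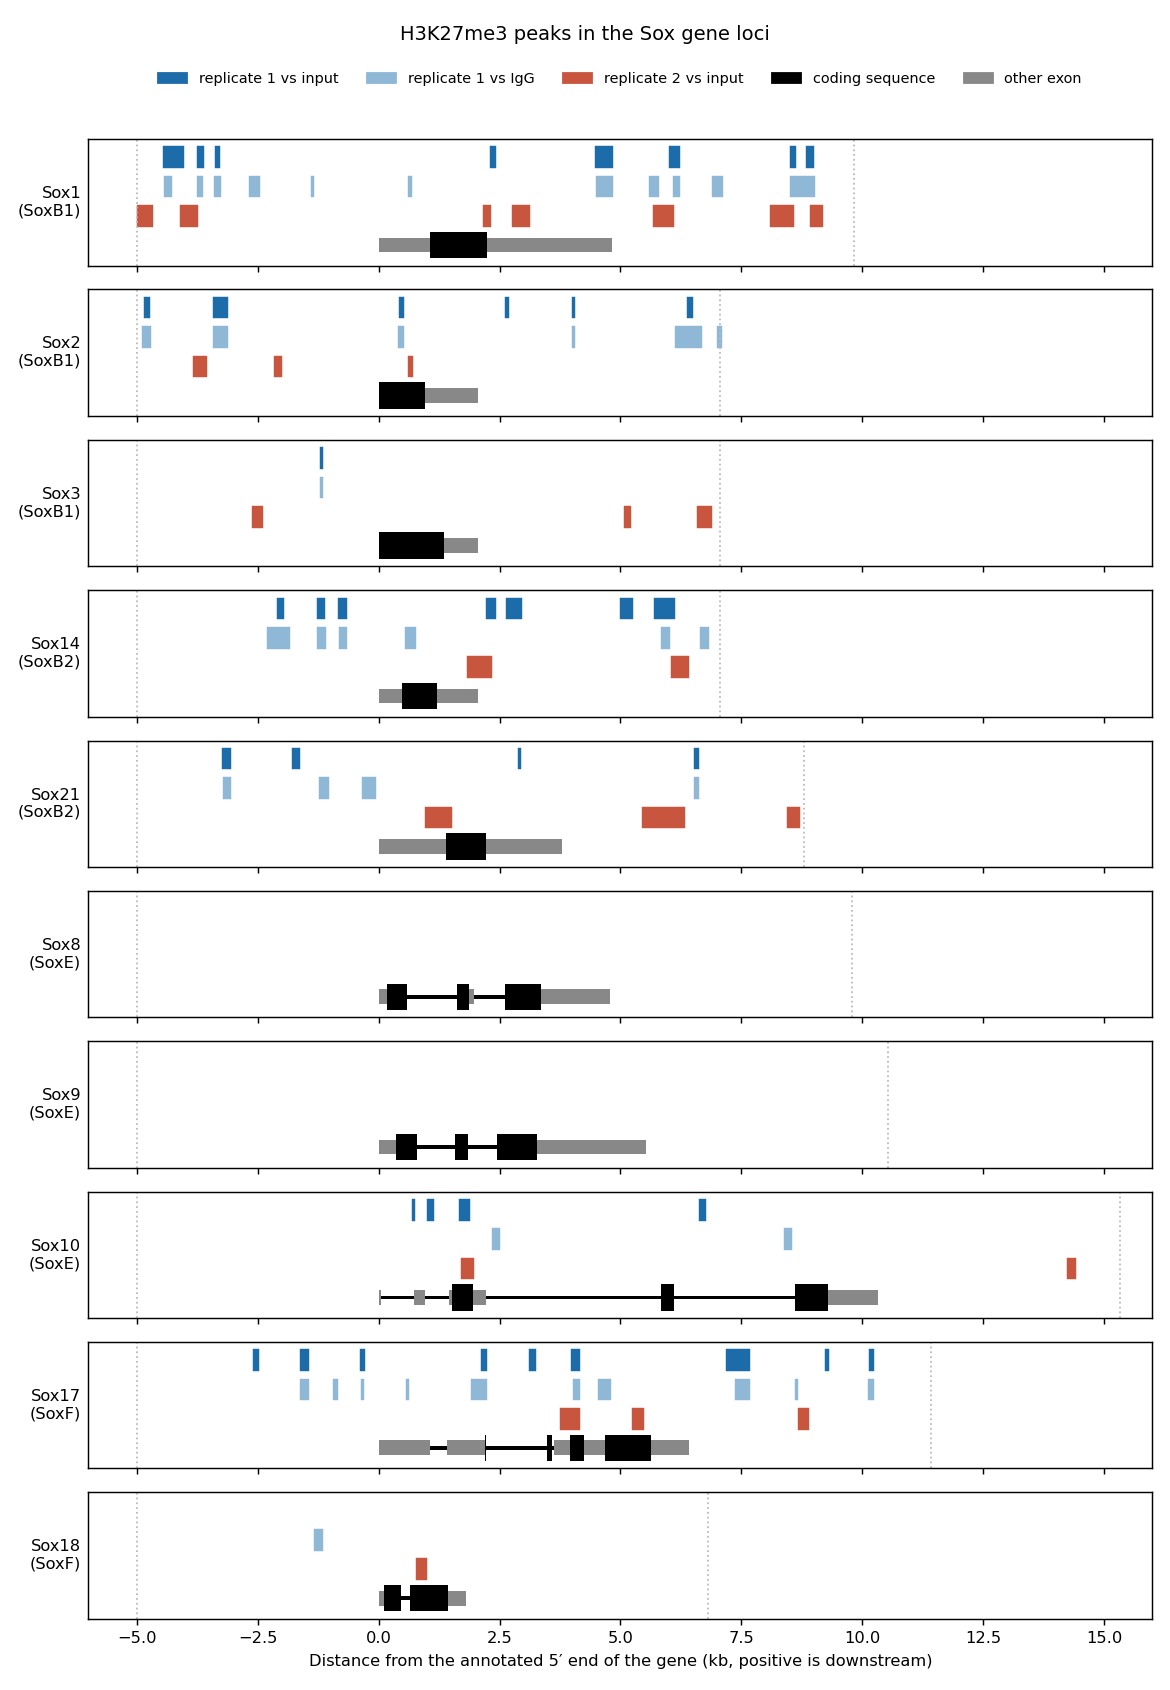
Peaks in the 10 Sox loci, drawn to scale by distance from the annotated 5′ end in kb (positive is downstream), with 1 row of boxes for each of the 3 peak lists above the gene model and dotted lines at the ends of the locus. The SoxB genes and Sox17 carry scattered short peaks, whereas the Sox8 and Sox9 loci are empty in each list.

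The share of a locus covered by peaks had a median of 3.91% over the 10 genes (mean of both replicates against input), with 0% as the median of all protein-coding genes. In replicate 1 the median was 2.82% and in replicate 2 it was 4.52%. Of the 10 genes, 7 lay above the 95th percentile of all genes, which was 0.978%, and 5 lay above the 99th percentile of 3.99%. These 5 were Sox1, Sox14, Sox21, Sox17 and Sox2 in descending order. Among the 6539 genes with loci in the same range of length, Sox1 and Sox14 were at percentiles 99.54 and 99.16. Sox21, Sox17 and Sox2 fell below the 99th percentile of these genes, at 98.49, 98.26 and 97.81. Sox3 and Sox10 were at 96.76 and 95.90. Each step between neighbours in the order of the 5 means was smaller than the SD of at least 1 of the 2 genes. The order of neighbours is therefore not resolved, and the same holds for Sox2 and Sox3. Sox1, at the upper end, was above Sox17 and Sox2 in each of the 3 lists.

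**Figure D2:**
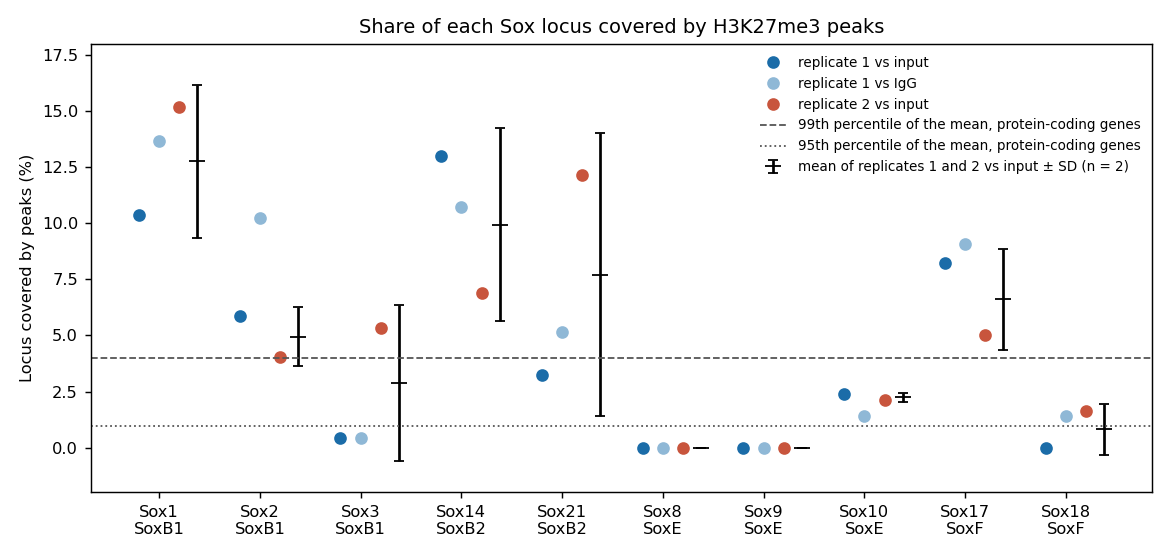
Share of each locus covered by peaks in percent, with a point for each of the 3 lists and the mean ± SD of replicates 1 and 2 against input (n = 2). Sox1 had the highest mean, 12.8%, while Sox8 and Sox9 were at 0% in each list.

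Sox1, a SoxB1 gene of neural progenitors, had the highest mean covered share, although Sox14 was higher in replicate 1. The gene (ENSMUSG00000096014.1, GRCm38 chromosome 8, 12395295 to 12400126, plus strand) has a single exon and lies within the noncoding gene Sox1ot. Replicate 1 had 8 peaks here, replicate 1 against IgG 11 and replicate 2 had 7. The covered shares were 10.4%, 13.7% and 15.2%, and those against input gave 12.8% ± 3.41 (SD, n = 2). These shares were at percentiles 99.66, 99.71 and 99.94 of protein-coding genes. Peaks lay on both sides of the gene and within it, whereas the 5′ end was free of peaks against input. The nearest peak began 2295 bp downstream of the 5′ end in replicate 1 and 2164 bp downstream in replicate 2, but 602 bp downstream in replicate 1 against IgG. In replicate 2 a peak 4687 bp upstream reached a fold enrichment of 3.26 over input, the highest of that list at the 10 loci. The mark extended well beyond the gene. Within 100 kb of the 5′ end there were 51 peaks in replicate 1 and 22 in replicate 2, compared with a mean of 2.28 and 2.64 for protein-coding genes.

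Sox2, the SoxB1 factor of stem and progenitor cells, was the single gene of the 10 with a peak within 1 kb of the GENCODE 5′ end in both replicates. Sox2 (ENSMUSG00000074637.7, chromosome 3, 34650405 to 34652461, plus strand) also has a single exon and lies within a noncoding gene, Sox2ot. There were 6 peaks in replicate 1, 6 when IgG was the control, and 3 in replicate 2. The covered shares were 5.88%, 10.2% and 4.02% (4.95% ± 1.31 for both replicates against input, SD, n = 2). Peaks touched the coding sequence in each list. They began 413 bp downstream of the 5′ end in replicate 1, 397 bp against IgG and 597 bp in replicate 2, and thus the replicates marked neighbouring and not shared bases. RefSeq places the Sox2 start 410 bp further upstream, at 34649995, and from there the replicate 2 peak lay 1007 bp away, just outside 1 kb. The coding peaks and the sequence upstream of them are printed because the call at Sox2 turns on their position, with CpG dinucleotides, the sites of vertebrate DNA methylation, in capitals. The promoter sequence is that of RefSeq on GRCm38.p6 (chr3:34649745-34649994, plus strand), the 250 bases before the RefSeq start, and the peaks are chr3:34650818-34650909 in replicate 1 and chr3:34651002-34651085 in replicate 2.
Sox2 promoter: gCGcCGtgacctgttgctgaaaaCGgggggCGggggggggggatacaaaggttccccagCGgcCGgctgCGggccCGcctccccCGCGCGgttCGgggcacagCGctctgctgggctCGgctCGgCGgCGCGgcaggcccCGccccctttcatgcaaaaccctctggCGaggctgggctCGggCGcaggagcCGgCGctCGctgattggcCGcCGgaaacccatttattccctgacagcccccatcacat
Sox2 coding peak, replicate 1: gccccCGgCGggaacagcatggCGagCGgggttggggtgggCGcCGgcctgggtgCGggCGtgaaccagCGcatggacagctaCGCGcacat
Sox2 coding peak, replicate 2: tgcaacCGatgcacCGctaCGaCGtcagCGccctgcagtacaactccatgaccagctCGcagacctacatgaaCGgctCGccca
The promoter stretch holds 27 CpG dinucleotides, a number reached by 8.56% of the 32851 promoter stretches of this length in the table, whose median is 6. A CpG is present in 92.1% of them. The table held 5 of the 10 genes. The replicate 1 peak holds 11 CpG dinucleotides in 92 bp and rested on about 4 tags, the lowest pileup of its list, and the replicate 2 peak holds 8 in 84 bp and rested on 8 tags. No peak of either replicate reached the printed promoter stretch itself.

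Sox3, the X-linked SoxB1 gene (ENSMUSG00000045179.9, chromosome X, 60891366 to 60893430, minus strand), was covered mainly in replicate 2. It had 1 peak in replicate 1, 1 against IgG and 3 in replicate 2, covering 0.414%, 0.406% and 5.33% of the locus (2.87% ± 3.48, SD, n = 2). The replicate 1 peak was 50 bp long and lay 1169 bp upstream, with a fold enrichment of 3.46, the highest of that list at the 10 loci. In replicate 2 the nearest peak lay 2408 bp upstream. Among X-linked protein-coding genes, 7.28% had a peak in both replicates, compared with 15.7% of all protein-coding genes. These shares are not matched for locus length. Among genes of all chromosomes with loci in the length range of the Sox loci, the share was 6.81%.

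The SoxB2 genes Sox14 and Sox21, which encode repressors in the developing nervous system, were both marked, each more widely in a different library. Sox14 (ENSMUSG00000053747.9, chromosome 9, 99874106 to 99876170, minus strand) had 7 peaks in replicate 1, 6 against IgG and 2 in replicate 2. The covered shares were 12.99%, 10.7% and 6.90% (9.95% ± 4.302, SD, n = 2). In replicate 1, 3 peaks lay upstream and 4 downstream of the gene and 0 within it, with the nearest 676 bp upstream of the 5′ end. In replicate 2 a peak of 484 bp touched the 3′ UTR. Sox21 (ENSMUSG00000061517.8, chromosome 14, 118233232 to 118237030, minus strand) had 4, 4 and 3 peaks in the same lists. Here the covered share was higher in replicate 2, with 12.2% compared with 3.25% in replicate 1 and 5.14% against IgG (7.71% ± 6.31, SD, n = 2). The longest peak of the 10 loci, 885 bp, lay downstream of Sox21 in replicate 2. A peak within 1 kb of its 5′ end was present in replicate 2, 955 bp downstream, and in replicate 1 against IgG, 74 bp upstream, but not in replicate 1 against input, where the nearest was 1653 bp upstream.

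The SoxE genes were the least marked of the groups. Sox9, the regulator of cartilage formation (ENSMUSG00000000567.5, chromosome 11, 112782224 to 112787760, plus strand), had no peak in its locus in any list. From its 5′ end, the nearest replicate 1 peak lay 98271 bp downstream, or 111202 bp with IgG as control, and the nearest replicate 2 peak 24466 bp downstream. Sox8, which overlaps Sox9 in function (ENSMUSG00000024176.10, chromosome 17, 25565892 to 25570686, minus strand), likewise had no peak in its locus. The nearest lay 101111 bp downstream in replicate 1, but 14870 bp upstream against IgG and 5049 bp upstream in replicate 2, just outside the locus. A gene without a peak is one where the pileup did not pass the authors' cutoff, and the level of the mark below it is not in the lists.

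Sox10, the neural crest and glial factor (ENSMUSG00000033006.10, chromosome 15, 79154908 to 79165240, minus strand), was the SoxE gene with a peak in both replicates. It had 4 peaks in replicate 1, 2 against IgG and 2 in replicate 2, covering 2.39%, 1.42% and 2.11% of the locus (2.25% ± 0.195, SD, n = 2). This was above the 95th but below the 99th percentile of all genes. Both replicates had a peak over the same coding exon, and they shared 170 bp. The replicate 1 peak there rested on about 4 tags, the lowest pileup of its list, and the replicate 2 peak on 8.01 tags. Against IgG no peak covered this stretch, and the peaks called there were both intronic. RefSeq places the Sox10 start further downstream, at 79164490. From there the peaks over the coding exon lay 906 bp away in replicate 1 and 946 bp in replicate 2, both within 1 kb. The other replicate 2 peak lay within the neighbouring gene Polr2f.

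Of the SoxF genes, Sox17, a factor of endoderm and arterial endothelium (ENSMUSG00000025902.13, chromosome 1, 4490931 to 4497354, minus strand), had peaks in the gene and in both flanks. It had 9 peaks in replicate 1, 10 against IgG and 3 in replicate 2, and the covered shares were 8.21%, 9.08% and 5.01% (6.61% ± 2.26, SD, n = 2). These were at percentiles 99.49, 99.36 and 99.17 of protein-coding genes. A replicate 1 peak lay 304 bp upstream of the 5′ end, while the nearest replicate 2 peak was 3757 bp downstream. Sox18, which acts in blood and lymphatic vessels (ENSMUSG00000046470.5, chromosome 2, 181669836 to 181671640, minus strand), had 0 peaks in replicate 1, 1 against IgG and 1 in replicate 2. The covered shares were 0%, 1.41% and 1.63% (0.813% ± 1.15, SD, n = 2), and the mean was smaller than the SD. The replicate 2 peak touched coding sequence 781 bp from the 5′ end and the IgG-called peak lay 1167 bp upstream.

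Promoters were then examined. Within 1 kb of the 5′ end, a peak was called in replicate 1 at 4 genes (Sox2, Sox14, Sox10 and Sox17, 3.87% of all genes), against IgG at 5 (Sox1, Sox2, Sox14, Sox21 and Sox17, 4.52%) and in replicate 2 at 3 (Sox2, Sox21 and Sox18, 4.16%). In both replicates against input it was 1 of 10 (Sox2), or 10%, compared with 1.04% of all genes. The interval of 1.79% to 40.4% treats the genes as a random sample. They were chosen by name, so it is no test against the share of all genes. The gene called depended on the annotation. With RefSeq starts, an alternative chosen after seeing the data, the count was again 1 but the gene was Sox10 and not Sox2. The count also depended on the distance allowed. Within 0.5 kb it was 0 (0.328% of all genes), within 2 kb it was 4 (Sox2, Sox14, Sox21 and Sox10, 2.28%) and within 5 kb it was 7 (4.31%). The Sox2 call rested on a replicate 1 peak at the lowest pileup of its list, and without such peaks, a setting chosen after seeing the data, the count was 0. With IgG as control for replicate 1 it was 2, Sox2 and Sox21 (1.29% of all genes).

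Next, the positions of peaks within the loci were examined. Of 39 replicate 1 peaks, 4 touched coding exons, 3 touched other exon sequence, 4 lay in introns, 14 lay upstream and 14 downstream. Of 24 replicate 2 peaks, 7 touched coding exons, 2 other exon sequence and 0 lay in introns, with 5 upstream and 10 downstream. CpG-dense sequence made up 29.7% of the 7 loci marked in both replicates. It held 32.2% of the replicate 1 peak bases, 29.4% of those against IgG and 47.9% of the replicate 2 peak bases. Its length was 4.63 kb at Sox9 and 2.11 kb at Sox8, and over the 7 marked loci it ranged from 1.97 kb at Sox10 to 6.35 kb at Sox1. Across the 10 genes the CpG ratio of the promoter and the mean covered share had a Pearson's r of 0.07 and a Spearman's rho of -0.09, which describe these genes and carry no test.

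To determine how far the replicates placed peaks at the same bases, single peaks were compared. Of the 39 replicate 1 peaks in the Sox loci, 10 shared at least 1 base with a replicate 2 peak (25.6%, 95% Wilson interval 14.6% to 41.1%), compared with 2.85% of all replicate 1 peaks. Most of these overlaps lay at the Sox1 locus, among them the shortest, of 4 and 2 bp. Sox2, Sox3 and Sox21 had no such overlap. Of the 24 replicate 2 peaks, 9 were overlapped (37.5%, interval 21.2% to 57.3%), compared with 1.90% of all. When a peak within 500 bp was accepted, these shares were 41.0% and 66.7%, compared with 8.36% and 5.15% of all peaks. Peaks in a locus are close together and not independent, so that the intervals are too narrow. The Sox loci held 3.9 and 2.4 peaks per gene in replicates 1 and 2, compared with 0.619 and 0.819 per protein-coding gene. All peaks are therefore not a background of equal density. Whether the overlap exceeds that of equally dense loci was not tested. With IgG as control the overlap by 1 base was lower. Of the 41 replicate 1 peaks called against IgG, 4 shared a base with a replicate 2 peak (9.76%, interval 3.86% to 22.5%), compared with 3.32% of all peaks of that list. A replicate 2 peak within 500 bp was present for 36.6% of them, close to the 41.0% against input. When at least 0.5 of the replicate 1 peak had to be shared, 3 of 39 remained (7.69%). Between the controls, 25 of the 39 replicate 1 peaks were also called against IgG (64.1%, interval 48.4% to 77.3%), compared with 51.0% of all replicate 1 peaks.

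**Figure D3:**
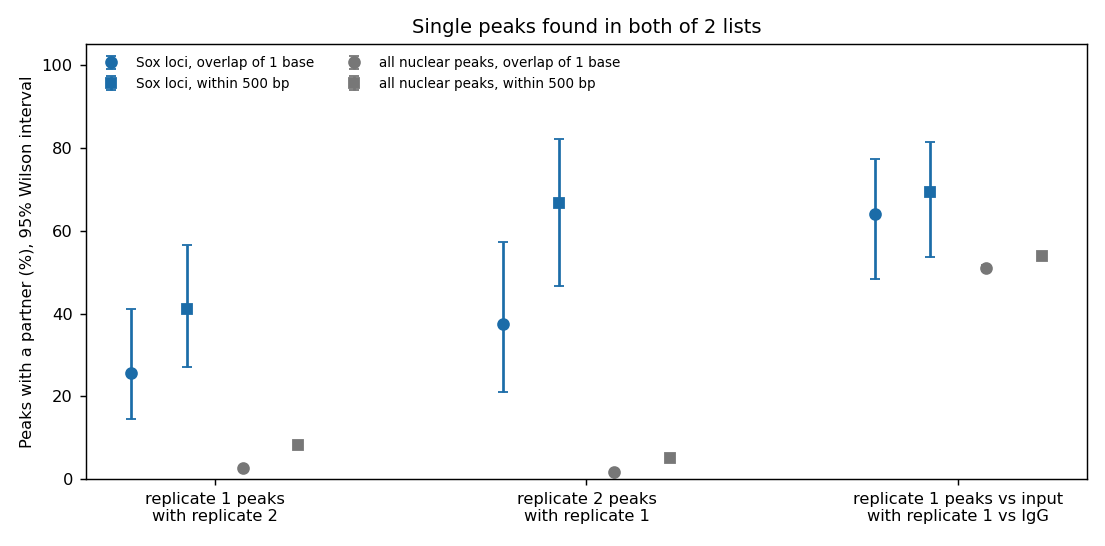
Percent of peaks with a partner in another list, for peaks in the Sox loci (blue) and all nuclear peaks (grey), by an overlap of 1 base (circles) or a partner within 500 bp (squares). Bars are 95% Wilson intervals. Of replicate 1 peaks in the Sox loci, 25.6% overlapped a replicate 2 peak, compared with 2.85% of all replicate 1 peaks. Most of the overlaps in the Sox loci lay at Sox1. All nuclear peaks are not matched to the Sox loci for peak density.

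The shared bases fell on 4 genes, Sox1, Sox14, Sox10 and Sox17. The stretches of at least 20 bp are printed because they are the bases that both libraries called, read on the strand of the gene from GRCm38.p6 with CpG dinucleotides in capitals. They are chr8:12391191-12391242 upstream of Sox1, chr8:12401299-12401375, chr8:12403797-12403867 and chr8:12404222-12404272 downstream of Sox1, chr9:99870065-99870120 and chr9:99873855-99873947 downstream of Sox14, chr15:79163375-79163544 in the Sox10 coding exon and chr1:4493220-4493367 in a Sox17 coding exon.
Sox1 upstream, 4053 bp: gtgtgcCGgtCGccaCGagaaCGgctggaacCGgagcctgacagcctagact
Sox1 downstream, 6004 bp: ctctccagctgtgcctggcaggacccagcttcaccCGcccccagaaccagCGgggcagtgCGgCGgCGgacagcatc
Sox1 downstream, 8502 bp: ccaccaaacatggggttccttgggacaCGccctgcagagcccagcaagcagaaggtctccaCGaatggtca
Sox1 downstream, 8927 bp: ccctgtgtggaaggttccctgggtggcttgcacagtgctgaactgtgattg
Sox14 downstream, 6050 bp: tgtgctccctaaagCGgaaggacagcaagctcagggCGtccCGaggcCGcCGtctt
Sox14 downstream, 2223 bp: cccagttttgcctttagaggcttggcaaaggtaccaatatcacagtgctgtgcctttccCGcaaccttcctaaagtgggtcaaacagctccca
Sox10 coding exon, 1696 bp: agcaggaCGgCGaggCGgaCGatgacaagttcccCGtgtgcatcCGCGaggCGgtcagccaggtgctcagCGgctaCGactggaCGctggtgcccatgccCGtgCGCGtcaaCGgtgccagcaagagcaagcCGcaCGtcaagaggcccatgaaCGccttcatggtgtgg
Sox17 coding exon, 3987 bp: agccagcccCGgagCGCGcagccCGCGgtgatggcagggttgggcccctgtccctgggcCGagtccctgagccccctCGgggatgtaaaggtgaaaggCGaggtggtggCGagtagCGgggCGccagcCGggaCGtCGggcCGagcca
The Sox10 stretch holds 18 CpG dinucleotides in 170 bp and the Sox17 stretch 15 in 148 bp. Those downstream of Sox1 and Sox14 hold between 0 and 5. Fold enrichments of the peaks behind the Sox10 stretch were 2.49 in replicate 1 and 2.94 in replicate 2, and behind the Sox17 stretch they were 2.73 and 2.70. The value of 2.49 was the lowest of the replicate 1 list at the Sox loci. Of the 8 stretches, the IgG-called list covered bases in 3, at Sox1 and Sox17.

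Across the 10 genes, the covered shares of the replicates had a Pearson's r of 0.60 and a Spearman's rho of 0.79, and across all protein-coding genes these were 0.68 and 0.31. These are correlations across genes, which are not independent replicates. Sox8 and Sox9 entered at 0% in both replicates, and no correlation was computed without them. Replicate 2 was sequenced more deeply and with longer tags, which cannot be told apart from other differences between the libraries.

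Peaks in the Sox loci were short, and their enrichment was close to that of the whole lists. A typical replicate 1 peak was 121 bp long (median), compared with 119 bp over that list, and in replicate 2 the medians were 262 and 181 bp. The median fold enrichment was 2.73 and 2.51, compared with 2.63 and 2.45. The extremes were 2.49 and 3.46 in replicate 1, and 2.40 and 3.26 in replicate 2. Replicate 1 peaks rested on about 4 to 7.09 tags and replicate 2 peaks on 6 to 8.5 tags, after the scaling by the authors was undone. The Sox loci held 39 and 24 peaks, or 3.9 and 2.4 per gene, compared with 0.619 and 0.819 per protein-coding gene. At a fold enrichment of 3 or higher, 5 replicate 1 peaks and 2 replicate 2 peaks remained, and both replicates kept a peak at Sox1 and Sox2.

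Peaks were then chained when 5 kb or less apart. In replicate 1 the chains touching the locus spanned 14.4 kb with 9 peaks at Sox1, 22.7 kb with 12 peaks at Sox2, 16.5 kb with 12 peaks at Sox14, 12.6 kb with 5 peaks at Sox21 and 12.8 kb with 9 peaks at Sox17. They were at percentiles 99.13 (Sox21) to 99.64 (Sox2) of protein-coding genes. In replicate 2 they were 11.4 kb at Sox1, 4.52 kb at Sox2, 6.69 kb at Sox14, 11.5 kb at Sox21 and 9.85 kb at Sox17, with percentiles from 97.8 (Sox2) to 99.52 (Sox21). The Sox1 chains of the replicates shared no base. In replicate 1 the chain lay downstream of the 5′ end (12397590 to 12411990), and in replicate 2 it lay upstream (12380161 to 12391539). Within each replicate, chains at Sox3, Sox10 and Sox18 were shorter than at the genes above. They were at most 6.06 kb in replicate 1 and 1.80 kb in replicate 2. Sox1 and Sox21 also had separate groups of peaks away from the gene in both replicates. Between 30 and 40 kb downstream of the Sox1 5′ end there were 8 peaks in replicate 1 and 5 in replicate 2, and between 40 and 50 kb downstream of that of Sox21 there were 5 and 3.

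**Figure D4:**
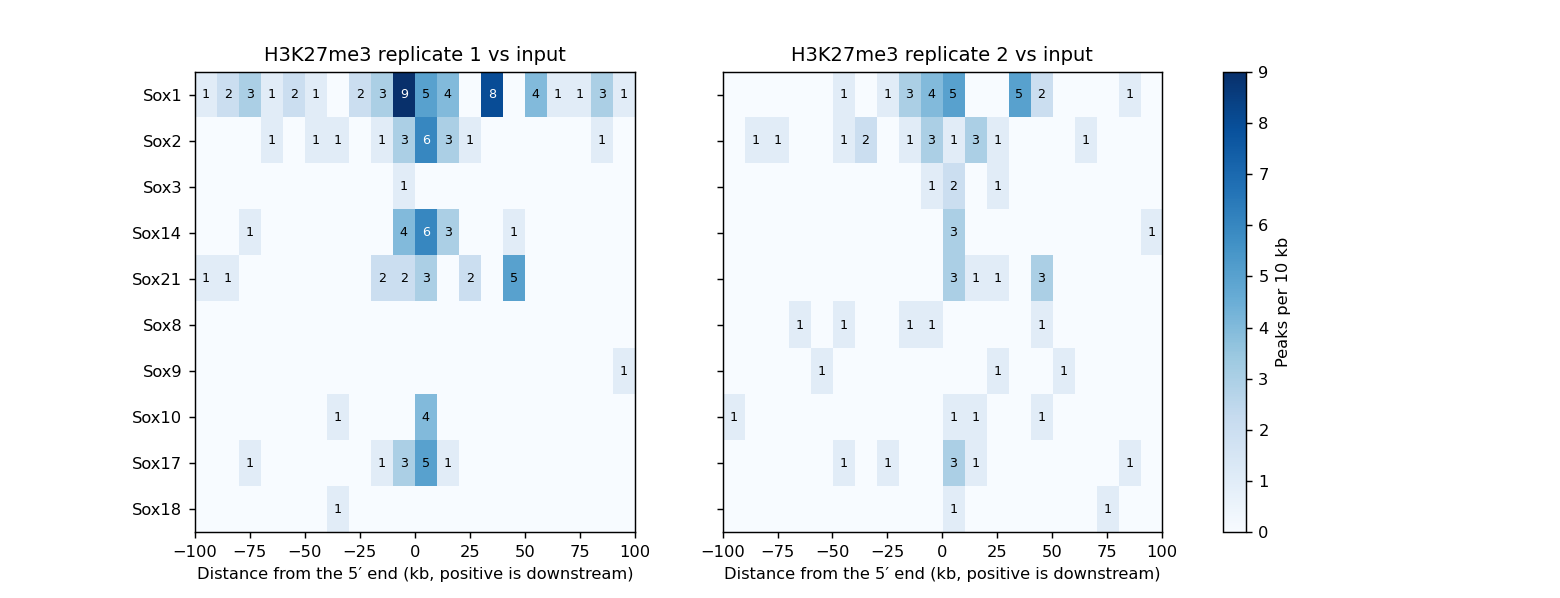
Number of peaks per 10 kb within 100 kb of the 5′ end of each gene, for replicate 1 (left) and replicate 2 (right) against input. In replicate 1, peaks gather at Sox1, Sox2, Sox14, Sox21 and Sox17, while Sox3 had 1 peak in all. In replicate 2, Sox1, Sox2, Sox21 and Sox17 had 22, 15, 8 and 7 peaks in all. Sox14 had 4 there, as did Sox3 and Sox10, and Sox8 had 5. Sox1 and Sox21 show a separate group downstream, with 8 and 5 peaks in replicate 1.

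Other Sox genes were counted for comparison. Of 10 (Sox4, Sox11 and Sox12 of SoxC, Sox5, Sox6 and Sox13 of SoxD, Sox7 of SoxF, and Sox15, Sox30 and Sry), 3 had a peak in both replicates (15.7% of all genes) and 6 had none in any list (51% of all genes), so that the latter share was close to the background. Sox7, the remaining SoxF gene, had covered shares of 6.81% in replicate 1, 2.17% in replicate 2 and 5.61% when IgG was the control, with 4.49% ± 3.28 (SD, n = 2) against input. The other two were Sox5 and Sox6, very long genes with a mean coverage of 0.183% and 0.378%. The SoxC genes had 0 peaks in each list.

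Genes that work with Sox factors were counted in the same way. Of 9 POU genes, a family in which some products pair with SoxB factors on DNA, 7 had a peak in both replicates. The median covered share of the 9 genes was 3.78%, close to the 3.91% of the 10 Sox genes. The highest mean shares were at Pou4f1 (10.8% ± 0.962), Pou3f2 (9.04% ± 5.19), Pou3f1 (8.33% ± 0.357) and Pou4f3 (7.86% ± 7.59, each SD, n = 2). Of 13 genes under SoxE control in cartilage, glia and melanocytes, 7 had a peak in both replicates, and the median covered share was 0.524%, below that of the 10 Sox genes and above the 0% of all genes. The highest was at Comp, a cartilage matrix gene, with 3.28% ± 3.03, followed by Erbb3 with 0.926% ± 0.213 and Col2a1 with 0.914% ± 0.0344. Of 10 genes under SoxF control or typical of endothelium, 4 had a peak in both replicates, with a median of 0.257%. These were Cldn5 (3.82% ± 0.0743), Flt1 (1.36% ± 0.212), Prox1 (1.02% ± 0.217) and Tek (0.254% ± 0.190). Against these lists stands the 15.7% of all genes with a peak in both replicates, and the lists contain long genes, at which a peak is more often found.

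Since the assay measures no RNA, the labelled tissue was examined through peaks at marker genes, first at their promoters. A promoter peak in both replicates was present at 1 of 8 dental mesenchyme markers (Pax9), 0 of 8 dental epithelium markers, 0 of 4 endothelial, 0 of 4 glial and neural crest and 0 of 3 blood markers, compared with 1.04% of all genes. In single lists, mesenchyme markers had 2 promoter peaks in replicate 1, 1 against IgG and 3 in replicate 2, epithelium markers had 2, 2 and 0, and glial and neural crest markers had 1, 1 and 1, compared with 3.87%, 4.52% and 4.16% of all genes. In the whole locus, a peak in both replicates was present at 4 of 8 mesenchyme and 3 of 8 epithelium markers. It was present at 0 of 4 endothelial, 3 of 4 glial and neural crest and 2 of 3 blood markers. Of all genes, 15.7% had such a peak, and the marker loci were not matched for length. Whether the marker genes were expressed is not measured here.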

How the data were processed

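H3K27me3 was profiled in molar mesenchyme of wildtype mice, with 2 H3K27me3, 2 input and 1 IgG libraries. Per the labels and the study's methods, the authors aligned reads to GRCm38 with BWA, kept uniquely mapped reads and called broad peaks in each library separately with MACS 2.1.1.20160309 at a p-value of 0.005. The deposited pileup is a signal (mean overlapping tags, the larger library scaled to the smaller), the deposited fold enrichment is a ratio to the local control background, and deposited p-values are −log10 values. Kept H3K27me3 tags numbered 30369351 in replicate 1 and 49947919 in replicate 2, with tags of 49 and 74 bp.

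Peaks were overlapped with GENCODE M21 gene bodies and 5 kb on each side, counting 1 shared base, in Python 3.11.15. The same values over 21938 protein-coding genes are the background. Percentiles are the share of those genes with a lower value. CpG-rich promoters are those above the median CpG ratio within 1 kb of the 5′ end. CpG-dense sequence is any stretch of 200 bp, moved in steps of 10 bp, with at least 50% G and C and a CpG ratio of 0.6 or higher. Intervals are 95% Wilson intervals and cover counting error only. With 1 condition and 2 H3K27me3 libraries, no test was run. Coverage code was tested on simulated peaks. All 10 genes are named, and of each other list at most 4 genes with a peak in both replicates and the highest mean covered share. The values of 1 gene that this rule names are not reported here. The members, lists and settings were chosen with earlier results of these data known. The other peak formats were not used.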

Additional observations from a re-analysis of the deposited data

How the results depend on the processing

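The number of genes with a peak in both replicates stayed between 5 and 8 when the flank was 0 or 10 kb. It stayed in this range when IgG replaced input and when replicate 2 was reduced to as many peaks as replicate 1. The same held without the peaks at the lowest pileup of their list, an alternative chosen after seeing the data. With a flank of 0 kb, the SoxB genes Sox3 and Sox14 were lost. A fold enrichment of 3 or higher left 2 genes with a peak in both replicates, 0 with a promoter peak in both, a median covered share of 0% and 0 of 5 replicate 1 peaks overlapped (0%). A −log10 p of 4 or higher left 0 genes, 0 promoters and a median of 0%, with no replicate 1 peak left to overlap. Fewer peaks are part of how both settings are built. The promoter count was 0 at 0.5 kb, 4 at 2 kb, 7 at 5 kb, 3 with all annotated transcript starts, 2 with IgG as control and 0 without the peaks at the lowest pileup. With RefSeq starts, also chosen after seeing the data, it was 1, but the gene was Sox10 in place of Sox2. The overlapped share was 9.76% with IgG as control and 7.69% when at least 0.5 of the replicate 1 peak had to be shared. Without one or the other replicate, the count of genes ranged from 7 to 8, that of promoters from 3 to 4 and the median covered share from 2.82% to 4.52%. No paired analysis was possible because there is 1 condition and no result comes from a test. Peaks rest on few tags, which limits the position of each one.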
